A study of Mus musculus with 9 samples.

Results

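The genes described here build the membrane invaginations and pore diaphragms of the vessel wall. They are the caveolins Cav1 and Cav2, the cavins Cavin1, Cavin2 and Cavin3, the neck ATPase Ehd2 and the diaphragm protein Plvap, 7 of the 46078 genes in the deposited count table. They were taken by symbol, and Cavin1, Cavin2 and Cavin3 stand in the table under their older names Ptrf, Sdpr and Prkcdbp. RNA-seq libraries were made from bone marrow (BM) endothelial cells (ECs) of normal wild type B6 mice, sorted as CD45-Ter119-CD31+ cells and divided by Sca-1, the surface protein encoded by Ly6a. There were 4 Sca-1+ libraries and 5 Sca-1- libraries, with no treatment in either fraction. The library titles do not all carry the same tag. Some titles in each fraction hold wt, while another tag is on most Sca-1- titles and on a minority of Sca-1+ titles. What the tags mark is not given in the sources used here, and their part in the results was not tested. In the study, high Sca-1 marks arteriolar ECs and low Sca-1 marks sinusoidal ECs, along with the shape of the vessel. The paper calls the sequenced fractions Sca-1high and Sca-1low, while the library labels read Sca-1+ and Sca-1-. The labels give neither the age of the mice nor the number of animals behind a library.

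Caveolae are flask-shaped pits of the plasma membrane that are abundant in ECs, fat cells and smooth muscle cells. Caveolins insert into the inner leaflet and form the bulb, cavins assemble on it from the cytosol as a coat, and EHD2 holds the neck at the cell surface. PLVAP forms the thin diaphragm that spans the necks of caveolae and the openings of fenestrated capillaries and sinusoids, where it acts as a sieve.

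Depth was similar in all libraries, at 23058385 to 24657204 counted reads in Sca-1+ and 21581653 to 25959818 in Sca-1-. Ly6a was read at 1133 ± 187 CPM (read counts scaled to a common library size; SD, n = 4) in Sca-1+ and at 0.678 ± 0.524 CPM (SD, n = 5) in Sca-1-. Pecam1, which encodes the sorted protein CD31, was at 1399 ± 261 against 836 ± 613 CPM (adjusted p = 0.25), and Ptprc, which encodes CD45, at 0.843 ± 1.20 against 28.9 ± 14.1 CPM. Of 15 general endothelial genes, 14 were higher in Sca-1+ and none was lower (median log2 fold change 4.22). Esam, a junction protein, was the exception at 1202 ± 46.5 against 1031 ± 845 CPM. Arteriolar markers were higher in Sca-1+ in 10 of 10 cases (median 4.82), and so were 8 of 9 sinusoidal markers (median 3.86), while Lyve1 was lower. The 12 megakaryocyte and platelet markers were all lower (median -10.59). Their summed level was 28.3 to 79.1 CPM in Sca-1+ and 24786 to 104188 CPM in Sca-1-. The summed endothelial list lay at 765 to 2533 CPM in Sca-1-, where Esam alone was at 303 to 2376 CPM. The highest of these sums was in Sca-1- 2, the library with the lowest mean log2 CPM of the endothelial list (3.28). Erythroid markers were lower in 7 of 10 cases (median -2.85) and leukocyte markers in 8 of 10 (median -5.23). Smooth muscle and pericyte markers were higher in 7 of 10 cases (median 4.47). Of 10 adipocyte and marrow stromal markers tested, 6 were higher and 2 were lower (median log2 fold change 2.02), but the summed level of that list was higher in 4 of the 5 Sca-1- libraries than in any Sca-1+ library, at 3350 to 41557 CPM against 4568 to 6181 CPM. The genes that were lower were the collagens Col1a1, at 165 ± 163 against 12161 ± 9667 CPM, and Col1a2, at 130 ± 97.6 against 5594 ± 4638 CPM, both abundant in bone-forming cells. In sorted bulk samples, fewer cells of a type and less RNA per cell cannot be told apart, and this holds for every difference below. The part of these other cells in the results below was not tested. The running sample numbers of the fractions form separate series, so that any batch they mark and the fraction cannot be told apart.

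Of the 7 genes, 6 were higher in Sca-1+ ECs and none was lower (edgeR quasi-likelihood test, adjusted p under 0.05). All 7 passed the filter on low counts. Over the 15937 genes tested, 23.3% were higher and 21.4% lower. In 5 of the 7 genes every Sca-1+ library lay above every Sca-1- library, against 24.8% of the genes tested. The exceptions were Cavin1, whose libraries overlapped between the fractions, and Cavin2, which did not pass the test. The median log2 fold change over all genes was 0.07. Directions were the same under the other scalings for the 6 genes, except that with libraries scaled to the 15 endothelial genes, which shifts the median of all genes to -4.33, none of the 7 was higher and 3 were lower (Cavin1, Cavin2 and Cavin3), beside 226 genes (1.42%) higher and 14066 (88.3%) lower overall. With library sizes alone the overall split was 4158 higher and 2431 lower, against 3721 and 3416 with TMM, and the log2 fold change of Cavin2 was 0.06. Together the 7 genes took 1.39% to 1.55% of all counts in the Sca-1+ libraries and 0.161% to 0.271% in the Sca-1- libraries.

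**Figure D1:**
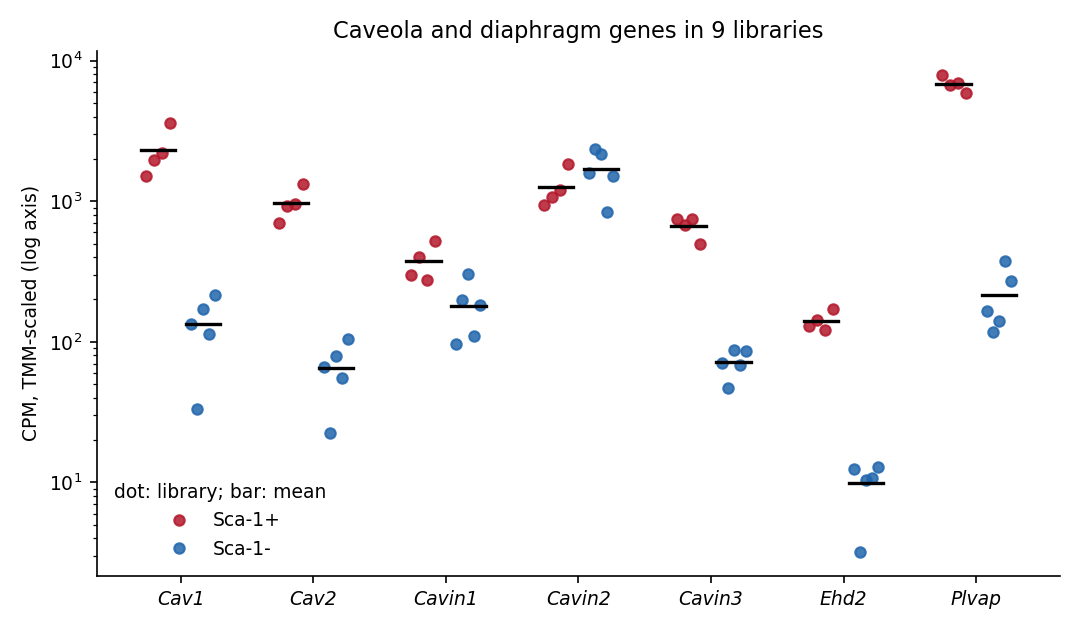
Level of each gene in CPM on a log axis, with a dot for each of 4 Sca-1+ and 5 Sca-1- libraries and a bar at the mean. The dots of the fractions lie apart for Cav1, Cav2, Cavin3, Ehd2 and Plvap, overlap for Cavin1, and for Cavin2 the Sca-1- mean of 1697 CPM lies above the Sca-1+ mean of 1265 CPM.

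Promoter sequences were available from RefSeq (GRCm38.p6) for 5 of the 7 genes, namely Cav1, Cav2, Cavin1, Cavin2 and Ehd2. The 250 bases before the start of Cav1 and Cav2, neighbours whose levels moved together, and of Cavin2, whose level did not pass the test, are shown because these windows hold no annotated exon. All are on the plus strand, at chr6:17306085-17306334 for Cav1, chr6:17280935-17281184 for Cav2 and chr1:51288876-51289125 for Cavin2, and capitals mark the CCAAT motif.
Cav1: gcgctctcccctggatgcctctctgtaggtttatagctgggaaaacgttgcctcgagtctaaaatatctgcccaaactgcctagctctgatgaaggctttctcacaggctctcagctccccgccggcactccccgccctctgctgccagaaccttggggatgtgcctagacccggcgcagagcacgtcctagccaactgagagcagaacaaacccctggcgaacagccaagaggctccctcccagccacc
Cav2: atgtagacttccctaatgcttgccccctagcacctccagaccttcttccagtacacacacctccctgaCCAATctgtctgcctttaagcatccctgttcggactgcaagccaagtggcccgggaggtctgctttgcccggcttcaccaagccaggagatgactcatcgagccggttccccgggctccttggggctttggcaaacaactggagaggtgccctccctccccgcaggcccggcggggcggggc
Cavin2: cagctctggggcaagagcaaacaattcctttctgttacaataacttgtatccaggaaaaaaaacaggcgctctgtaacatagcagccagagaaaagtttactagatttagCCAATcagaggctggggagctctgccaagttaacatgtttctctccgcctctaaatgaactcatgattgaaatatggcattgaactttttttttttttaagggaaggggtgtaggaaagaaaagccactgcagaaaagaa
The CCAAT motif began 182 bases before the start of Cav2 and 140 bases before that of Cavin2, and was not found in the window of Cav1. It was also in the windows of Cavin1 and Ehd2, which are not shown. All motifs were sought on both strands. Among all 32851 promoter windows of this length 33.8% held it. The AGGAAG letters of ETS factors were in 29.5% of all windows and the AGATAA letters of GATA factors in 9.99%, and neither was in the window of any of the 5 genes. The CACCC letters of Krüppel-like factors, in 52.0% of all windows, were found in Cavin1 and Cavin2. TATAAA, in 12.4%, was in the shown window of Cav1 on the minus strand. Another start of Cav1 has its window at chr6:17307390-17307639 (GC content 60.8%), which holds no annotated exon and is not shown. None of the motifs sought was in that window. The Cavin2 window had a GC content of 40.4%, below the median of 52.4% over all windows. The shown windows of Cav1 and Cav2 had 59.6% and 62.0%. These matches are descriptions of the letters and carry no test.

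Cav1, the caveolin without which ECs form no caveolae, lies on chromosome 6 from 17306335 to 17341452 (mm10, plus strand; ENSMUSG00000007655). It was read at 1509, 1950, 2216 and 3622 CPM in Sca-1+ libraries 1 to 4, and at 133, 33.5, 171, 113 and 217 CPM in Sca-1- libraries 1 to 5. The fractions did not overlap, and the lowest value was that of Sca-1- 2, the library with the most megakaryocyte marker RNA. Mean levels were 2324 ± 913 CPM (SD, n = 4) and 134 ± 68.6 CPM (SD, n = 5), 17.4-fold higher in Sca-1+ (log2 fold change 4.12, SE 0.52, adjusted p = 0.00019).

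Cav2, which pairs with caveolin-1 in the same coat, ends 17.22 kb before Cav1 on the same strand (chromosome 6, 17281185 to 17289115; ENSMUSG00000000058). Its values were 696, 925, 954 and 1335 CPM in the Sca-1+ libraries and 66.4, 22.4, 79.1, 55.3 and 104 CPM in the Sca-1- libraries. Its libraries stood in the same order as those of Cav1 in both fractions, from Sca-1+ 4 at the top to Sca-1- 2 at the bottom. The mean was 978 ± 265 CPM (SD, n = 4) against 65.5 ± 30.1 CPM (SD, n = 5), a 14.9-fold difference (log2 fold change 3.90, SE 0.42, adjusted p = 8.8e-05). Within each library, log2 CPM of Cav2 minus that of Cav1 was -1.21 ± 0.16 in Sca-1+ and -0.96 ± 0.22 in Sca-1- (SD). That difference of -0.25 passed the test over all 9 libraries (exact permutation test, p = 0.032, adjusted over 6 ratios p = 0.038), but without Sca-1- 2 it was -0.16 (adjusted p = 0.069), and it did not pass without any of 8 of the 9 libraries taken singly (adjusted p up to 0.21).

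Cavin1 encodes the core cavin, which is required for caveolae in all tissues that form them (chromosome 11, 100956733 to 100970887, minus strand; ENSMUSG00000004044). It was read at 298, 403, 276 and 520 CPM in Sca-1+ and at 96.8, 197, 305, 111 and 182 CPM in Sca-1-. The fractions overlapped, since Sca-1- 3 lay above the lower Sca-1+ libraries. Sca-1- 3 also had the highest summed level of adipocyte and marrow stromal markers, 41557 CPM. The next highest sum, 19068 CPM, was that of Sca-1- 4, which had less Cavin1 than Sca-1- 2, where the sum was 9291 CPM. The mean of 374 ± 112 CPM (SD, n = 4) was 2.10-fold that of Sca-1-, 178 ± 83.2 CPM (SD, n = 5; log2 fold change 1.07, SE 0.36, adjusted p = 0.033). This call rested on single libraries. Without Sca-1+ 2 or Sca-1+ 4 the adjusted p was 0.075 or 0.098, and without Sca-1- 1, 2, 4 or 5 it was 0.10, 0.064, 0.062 or 0.057. With DESeq2's size factors in edgeR it was 0.077, and over 20 alternative settings it lay between 0.00041, where the sign was reversed, and 0.18.

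Cavin2, a cavin that shapes caveolae and is abundant in ECs and platelets, did not pass the test (chromosome 1, 51289126 to 51302960, plus strand; ENSMUSG00000045954). Its level was 946, 1078, 1198 and 1837 CPM in the Sca-1+ libraries and 1595, 2361, 2183, 843 and 1505 CPM in the Sca-1- libraries. All Sca-1+ values fell within the Sca-1- range, with the lowest value of all in Sca-1- 4 and the highest in Sca-1- 2. The means were 1265 ± 395 CPM (SD, n = 4) and 1697 ± 603 CPM (SD, n = 5). The log2 fold change was -0.42 (SE 0.35, 95% interval -1.20 to 0.36, adjusted p = 0.35), an interval of 0.434 to 1.28 for the ratio of Sca-1+ to Sca-1-. Sca-1- 2 and Sca-1- 3, the libraries with the most Cavin2, also held the most megakaryocyte marker RNA (Itga2b at 23281 and 18340 CPM), and Sca-1- 4 held the least of both (Itga2b at 5539 CPM). In Sca-1+ libraries Itga2b was at 9.87 to 11.7 CPM.

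Cavin3, the cavin that binds protein kinase C delta and is a partner of Cavin1 in the coat, was higher in Sca-1+ ECs (chromosome 7, 105480083 to 105482300, minus strand; ENSMUSG00000037060). Its values were 742, 676, 748 and 496 CPM in Sca-1+ and 71.1, 47.3, 87.9, 68.4 and 86.2 CPM in Sca-1-. Every Sca-1+ library stood above every Sca-1- library. The mean of 665 ± 117 CPM (SD, n = 4) was 9.22-fold that of 72.2 ± 16.4 CPM (SD, n = 5; log2 fold change 3.20, SE 0.26, adjusted p = 2.2e-05). In the GENCODE M21 annotation, 22.5% of its exon length overlaps Gm45667 on the opposite strand. Whether counting used strand is not given in the sources used here, so reads over the 374 shared bases are uncertain. The deposited count table has no row under the symbol Gm45667, and other names of it were not sought.

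Ehd2, the ATPase at the caveola neck, had the lowest level per exon length of the 7 genes in every library (chromosome 7, 15946958 to 15967567, minus strand; ENSMUSG00000074364). It was read at 130, 142, 121 and 173 CPM in Sca-1+ and at 12.4, 3.21, 10.3, 10.7 and 12.9 CPM in Sca-1-, where Sca-1- 2 stood apart from the rest with 46 reads. The mean was 141 ± 22.6 CPM (SD, n = 4) against 9.92 ± 3.91 CPM (SD, n = 5), 14.2-fold higher in Sca-1+ (log2 fold change 3.83, SE 0.37, adjusted p = 4.8e-05).

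Plvap had the largest fold change of the 7 genes (chromosome 8, 71497765 to 71511752, minus strand; ENSMUSG00000034845). The diaphragm gene was read at 7949, 6684, 6941 and 5875 CPM in Sca-1+ and at 165, 117, 141, 374 and 272 CPM in Sca-1-. By read count it ranked 2 to 6 among all genes in the Sca-1+ libraries and 273 to 1891 in the Sca-1- libraries. The mean of 6862 ± 855 CPM (SD, n = 4) was 32.1-fold that of Sca-1-, 214 ± 107 CPM (SD, n = 5; 95% interval of the log2 fold change 4.04 to 5.96, SE 0.43, adjusted p = 3.1e-05). Sca-1- 4 and Sca-1- 5, with the most Plvap of that fraction, also had the most Stab2, a sinusoidal scavenger receptor, at 41.0 and 9.81 CPM against 3.21 to 3.61 CPM in the other 3. Stab2 was at 137 to 385 CPM in Sca-1+. This match was not particular to a sinusoidal gene. Sca-1- 4 and Sca-1- 5 also had the highest mean log2 CPM of their fraction for the general endothelial list (4.92 and 4.99). The same held for the arteriolar list (1.62 and 1.79). How Plvap follows any of these was not tested.

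**Figure D2:**
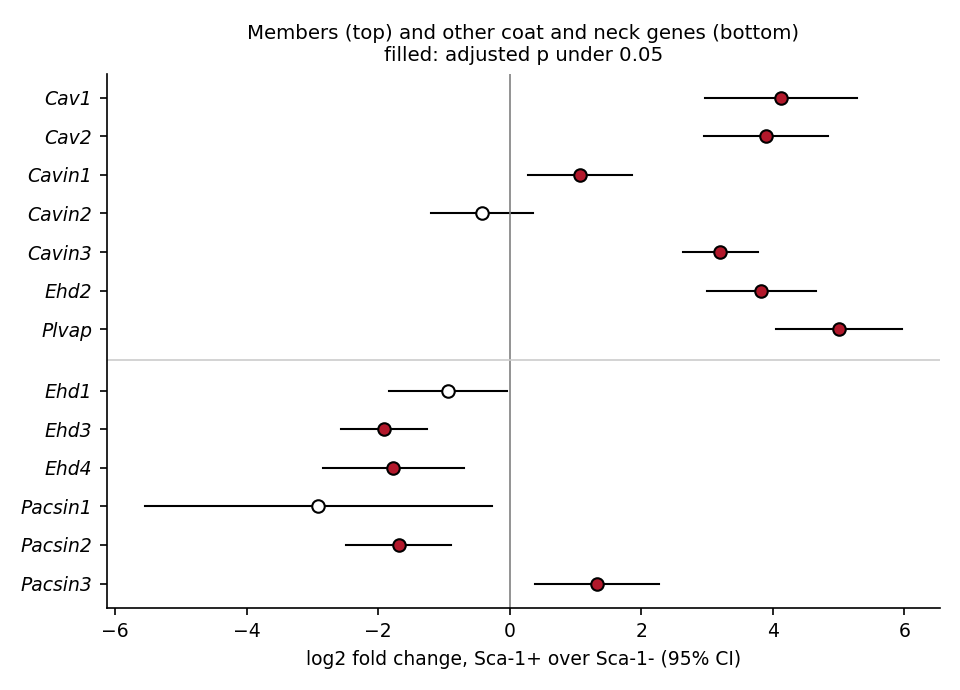
Log2 fold change of Sca-1+ over Sca-1- with its 95% interval from edgeR for the 7 genes (top) and the 6 tested genes of the other coat and neck list (bottom), filled where the adjusted p was under 0.05. Plvap lies farthest to the right with an interval of 4.04 to 5.96, the interval of Cavin2 spans 0 and, with TMM scaling as for all points, Ehd2 at 3.83 lies opposite to its relatives Ehd3 at -1.92 and Ehd4 at -1.77.

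Levels of different genes were set side by side as CPM per kilobase of exon. In Sca-1+ ECs the order was Plvap (3454 ± 430), Cav1 (675 ± 265), Cavin2 (414 ± 129), Cavin3 (400.4 ± 70.7), Cav2 (293 ± 79.4), Cavin1 (104 ± 31.2) and Ehd2 (27.6 ± 4.42 CPM per kb, SD, n = 4). Plvap, Cavin1 and Ehd2 were clear of their neighbours in every library, while the ranges of Cav1 and Cavin2, of Cavin2 and Cavin3, and of Cavin3 and Cav2 overlapped. In Sca-1- cells Cavin2 led at 556 ± 197, ahead of Plvap (108 ± 54.1), Cavin1 (49.7 ± 23.2), Cavin3 (43.4 ± 9.88), Cav1 (38.8 ± 19.9), Cav2 (19.6 ± 9.04) and Ehd2 (1.94 ± 0.763 CPM per kb, SD, n = 5). There the ranges of all neighbours from Plvap to Cav2 overlapped, and those of Cavin2 and Ehd2 lay clear. Cavin2 ranked first of the 7 genes in all 5 Sca-1- libraries and Plvap in all 4 Sca-1+ libraries.

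The make-up of the cavin trio per exon length differed accordingly. Cavin2 held 44.4% ± 9.08 of the summed level in Sca-1+ (SD, n = 4) and 84.9% ± 4.38 in Sca-1- (SD, n = 5). Cavin3 held 44.3% ± 10.9 and 7.46% ± 3.14, and Cavin1 11.3% ± 2.56 and 7.67% ± 2.17. The shares of Cavin2 ranged from 36.9% to 57.5% in Sca-1+ and from 79.3% to 90.3% in Sca-1-, without overlap.

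**Figure D3:**
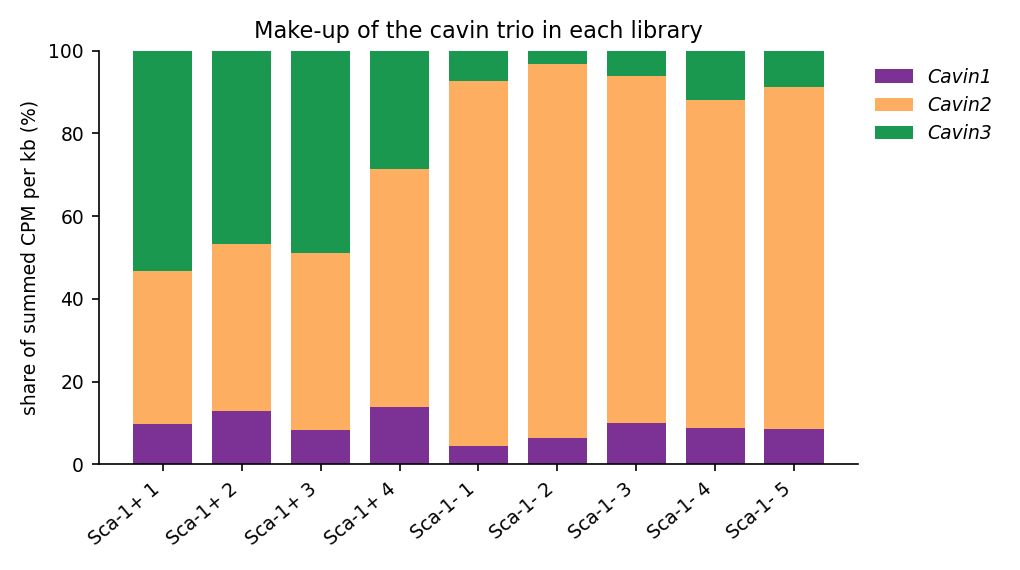
Share of Cavin1, Cavin2 and Cavin3 in their summed CPM per kilobase of exon, in percent, as a stacked bar for each of 9 libraries. Cavin2 takes at least 79.3% in the Sca-1- libraries and at most 57.5% in the Sca-1+ libraries, where Cavin3 takes most of the rest.

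Ratios within a library do not depend on how libraries were scaled, and 6 of them were compared between the fractions with a two-sided exact permutation test over all ways to place 4 and 5 libraries, whose smallest possible p is 0.0079. Cavin1 minus Cav1 was -2.60 ± 0.35 on the log2 scale in Sca-1+ and 0.53 ± 1.23 in Sca-1-, a difference of -3.13 (SD; exact p = 0.0079, adjusted p = 0.012). Cavin2 exceeded Cavin1 by 1.76 ± 0.29 in Sca-1+ and by 3.29 ± 0.51 in Sca-1-, a difference of -1.53 (exact p = 0.0079, adjusted p = 0.012). Cavin3 minus Cavin1 was 0.86 ± 0.69 in Sca-1+ and -1.21 ± 0.70 in Sca-1-, and Ehd2 minus Cavin1 was -1.37 ± 0.21 and -4.18 ± 1.20. These differed by 2.07 and 2.81 (each exact p = 0.0079, adjusted p = 0.012). In each of these 4 ratios the fractions did not overlap. All 4 hold Cavin1 and so share its values, and they are not separate findings. Plvap minus Cav1 was 1.63 ± 0.70 in Sca-1+ and 0.78 ± 0.93 in Sca-1-, a difference of 0.85 that did not pass the test (exact p = 0.18, adjusted p = 0.18).

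The genes were also set against the mean log2 CPM of 15 general endothelial genes in the same library, which asks whether a gene moved with endothelial RNA in general. Cav1 lay 2.36 ± 0.68 above that mean in Sca-1+ (SD, n = 4) and 2.39 ± 0.55 above it in Sca-1- (SD, n = 5), a difference of -0.03 (exact p = 0.94). For Cav2 and Ehd2 the differences were -0.29 (exact p = 0.40) and -0.36 (exact p = 0.13). Against Cdh5 alone, the endothelial cadherin, they were -1.35 (exact p = 0.024) and -1.42 (exact p = 0.016), and that of Cav1 was -1.10 (exact p = 0.056). Against the median of the list they were -0.71 (exact p = 0.13) for Cav2, -0.78 (exact p = 0.016) for Ehd2 and -0.46 (exact p = 0.37) for Cav1, and without Sca-1+ 4 that of Ehd2 was -0.52 against the list (exact p = 0.036). Cavin2 was lower in Sca-1+ on this relative scale, at 1.51 ± 0.56 against 6.21 ± 1.19, a difference of -4.70 (exact p = 0.0079). Cavin1 was at -0.25 ± 0.52 against 2.92 ± 1.14, a difference of -3.17 (exact p = 0.0079). Cavin3 was at 0.61 ± 0.19 against 1.71 ± 0.47, a difference of -1.09 (exact p = 0.016). Plvap was at 3.99 ± 0.11 against 3.17 ± 0.43, a difference of 0.82 (exact p = 0.024), which was 0.39 against the median of the list (exact p = 0.11) and -0.25 against Cdh5 (exact p = 0.41). These are 7 single comparisons on the same libraries, and their p-values are not adjusted. Of the 15 reference genes, 14 were higher in Sca-1+ (median log2 fold change 4.22), so a gene without such a difference falls lower on this scale. With libraries scaled to these genes, 88.3% of all genes were lower and 1.42% higher. A lower relative level is therefore the common outcome and not particular to the cavins.

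**Figure D4:**
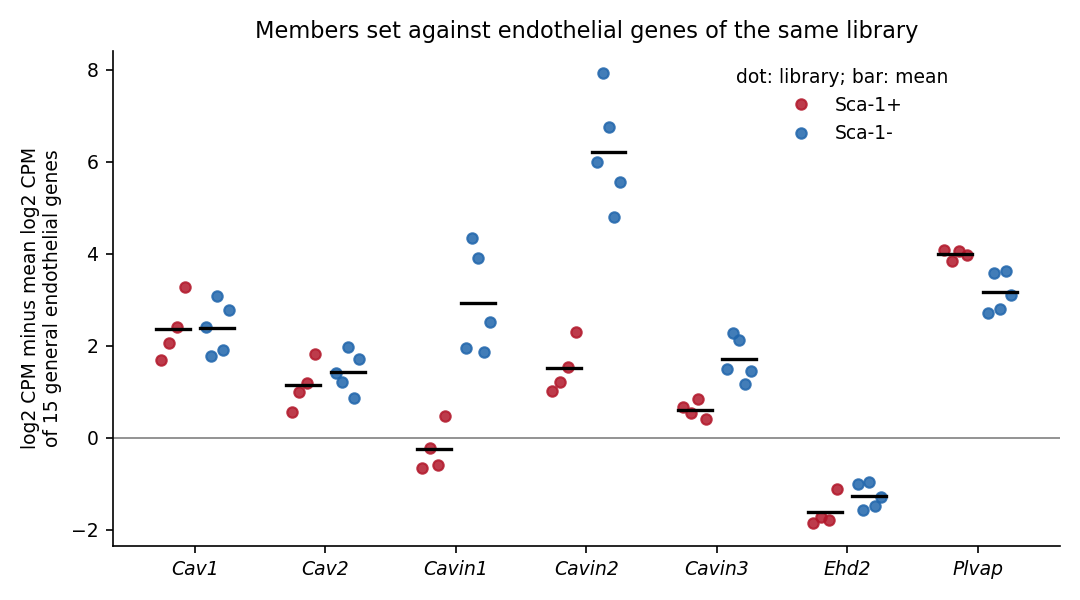
Log2 CPM of each gene minus the mean log2 CPM of 15 general endothelial genes in the same library, with a dot for each of 9 libraries and a bar at the mean. The fractions overlap for Cav1, Cav2 and Ehd2, while for Cavin1, Cavin2 and Cavin3 every Sca-1- library lies above every Sca-1+ library, most for Cavin2 with means of 6.21 and 1.51.

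A list of other coat and neck genes of caveolae was small. Of the 8 listed, Cav3 and Cavin4, the muscle members, were at or near 0 and could not be tested. Of the other 6, 1 was higher and 3 were lower in Sca-1+ (median log2 fold change -1.73), against 23.3% and 21.4% of all genes and a median of 0.07. Ehd3, a relative of Ehd2 that acts on recycling endosomes, was at 69.1 ± 15.2 against 261 ± 81.6 CPM (log2 fold change -1.92, SE 0.29, adjusted p = 0.00055). Ehd4 was at 216 ± 94.9 against 736 ± 415 CPM (-1.77, SE 0.48, adjusted p = 0.013). Pacsin2, the F-BAR protein that bends the caveola neck in most tissues, was at 109 ± 27.1 against 351 ± 159 CPM (-1.69, SE 0.36, adjusted p = 0.0035). Pacsin3, known mainly from muscle, was higher at a low level, 6.33 ± 2.11 against 2.51 ± 1.06 CPM (1.33, SE 0.42, adjusted p = 0.027). Without Sca-1+ 1, Sca-1- 1 or Sca-1- 2 the adjusted p of Pacsin3 was 0.10, 0.052 or 0.053. Scaled to the endothelial genes Pacsin3 was lower (-2.95), as were all 6 tested genes of the list (median -6.38). With that scaling 88.3% of all genes were lower and 1.42% higher. Ehd1 and Pacsin1 did not pass the test (adjusted p = 0.082 and 0.070). The summed level of the list was highest in Sca-1- 2 and Sca-1- 3 (2471 and 2071 CPM), the libraries with the most megakaryocyte marker RNA. It lay at 394 to 710 CPM in Sca-1+, a range that held the lowest Sca-1- sum, 706 CPM in Sca-1- 4.

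Genes of proteins that reside in caveolae or act on them were mostly higher with TMM scaling. Of 16 listed genes 15 were tested. Of these, 11 were higher and 1 was lower (median log2 fold change 3.74), against 23.3% and 21.4% of all genes. Scaled to the endothelial genes 3 were higher and 6 lower, against 1.42% and 88.3% of all genes. Cd36, a fatty acid translocase, was at 2370 ± 1069 against 14.9 ± 16.3 CPM (log2 fold change 7.31, SE 0.90, adjusted p = 0.00017). Gpihbp1, which carries lipoprotein lipase to the capillary lumen, was at 917 ± 136 against 12.7 ± 8.55 CPM (6.17, SE 0.66, adjusted p = 8.2e-05). Tfpi, the tissue factor pathway inhibitor, was at 1866 ± 635 against 44.0 ± 48.7 CPM (5.40, SE 0.76, adjusted p = 0.00034). Nos3, the endothelial nitric oxide synthase that caveolin-1 binds, was at 141 ± 23.2 against 3.58 ± 3.05 CPM (5.28, SE 0.73, adjusted p = 0.00032). The gene that was lower was Ptgis, prostacyclin synthase, at 3.25 ± 2.07 against 33.6 ± 21.5 CPM (-3.37, SE 0.68, adjusted p = 0.0027), named after its values were seen.

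VEGF is known to induce fenestrae and diaphragms. All 4 listed genes of its signal were higher (median log2 fold change 4.83), against 23.3% of all genes. The log2 fold change was 6.76 for the coreceptor Nrp1, 5.92 for the receptor Flt1, 3.74 for Kdr, the main signalling receptor, and 1.51 for the ligand Vegfa. Scaled to the endothelial genes, Nrp1 and Flt1 were higher, Kdr did not pass the test (-0.88) and Vegfa was lower (-2.86). With that scaling 1.42% of all genes were higher and 88.3% lower. Kdr was at 806 ± 125 against 60.4 ± 17.4 CPM and Vegfa at 81.3 ± 22.9 against 28.5 ± 12.5 CPM.

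Genes of other membrane uptake routes changed in both directions. In the list of raft proteins and membrane scission, 2 of 10 genes were higher, near the share of 23.3% over all genes, and 5 were lower, against 21.4% (median log2 fold change -1.25). The scaffold Itsn1 differed by -4.45 (SE 0.58), the fusion protein Snap23 by -3.96 (SE 0.55), Itsn2 by -1.91 (SE 0.46) and the dynamin Dnm3 by 3.95 (SE 0.97), with adjusted p-values of 0.00023, 0.00033, 0.0067 and 0.0076. Named after their values were seen, Flot2 was the other gene that was higher (1.52), and the raft proteins Stom (-1.78) and Flot1 (-0.66) were lower. The calls of these 3 rested on single libraries: the adjusted p of Flot2 was 0.051 to 0.078 without any library but Sca-1- 4, that of Flot1 was 0.10, 0.092 or 0.059 without Sca-1+ 1, 2 or 4, and that of Stom was 0.052 without Sca-1+ 3. Scaled to the endothelial genes, none of the list was higher and 9 were lower, near the 88.3% of all genes. Of 16 clathrin coat genes, 5 were higher and 5 lower (31.3% each, median 0.14), against 23.3% and 21.4% of all genes. Scaled to the endothelial genes none was higher and 14 were lower, near the 88.3% of all genes. Dab2 and Epn2, cargo adaptors, were higher (4.04 and 3.82), and Fcho1 and Bin1, membrane-bending proteins, were lower (-4.18 and -3.60). The coat gene Cltc did not pass the test at 194 ± 44.1 against 160 ± 39.8 CPM (log2 fold change 0.28, adjusted p = 0.39).

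**Figure D5:**
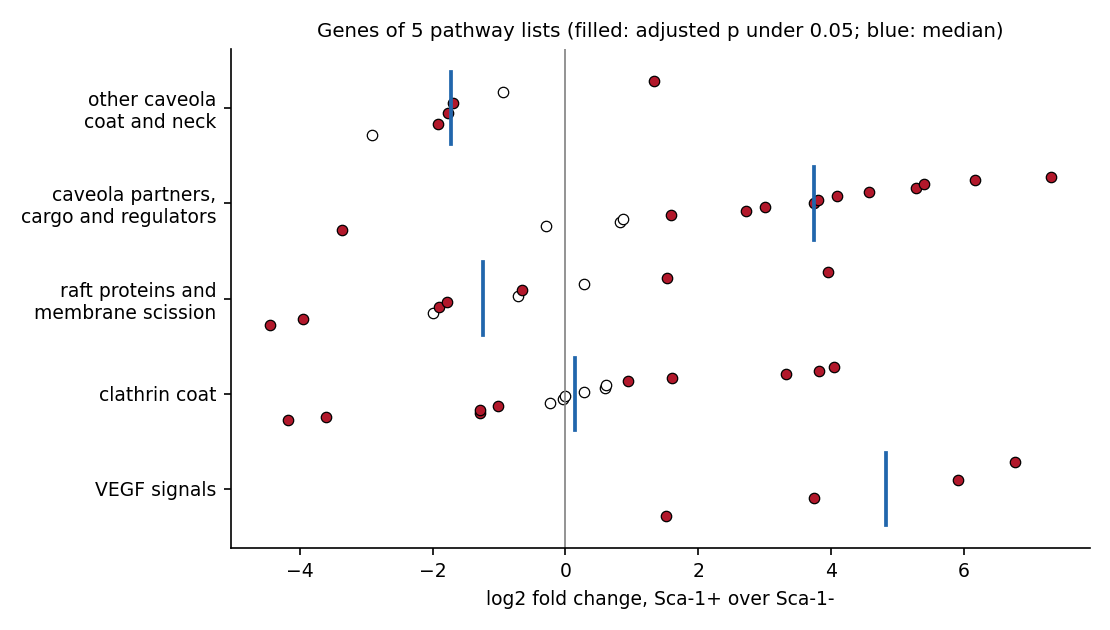
Log2 fold change of Sca-1+ over Sca-1- for each tested gene of 5 pathway lists, filled where the adjusted p was under 0.05, with the median of each list in blue. With TMM scaling, medians lie at -1.73 for other caveola coat and neck genes, 3.74 for partners, -1.25 for raft and scission genes, 0.14 for clathrin genes and 4.83 for VEGF signals.

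The genes whose profiles over the 9 libraries were most like each member were found among 9866 genes of sufficient level, by the root mean square difference of mean-centred log2 CPM, as a description. Cav2 was the nearest gene to Cav1 (0.213 log2 units), followed by Cdh13 (0.270), a GPI-anchored cadherin, and Rnd1 (0.303). Cdh13 was nearest to Cav2 (0.182), ahead of Cav1 and Ehd2 (0.249). Ehd2 was followed by Lmcd1 (0.173), Prkch and S1pr1 (0.227), and Cavin3 by Mapk11 (0.232), the receptor Tie1 (0.255) and Elk3. Plvap was nearest to 2610305D13Rik (0.266), Prex2 and Tmem88. Nearest to Cavin1 were Gcnt2 (0.0997), A730081D07Rik and Stk38l, and nearest to Cavin2 were Pcp4l1 (0.132), Acbd3 and Abcc4. No other member was among the 3 nearest genes of Ehd2, Cavin3, Plvap, Cavin1 or Cavin2.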

How the data were processed

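The authors sorted BM ECs, extracted RNA and made poly(A) libraries from 2 ng of RNA with SMART-Seq v4, a kit without molecular identifiers. PCR copies are therefore counted, and depth speaks for counting error alone. The submitters' processing notes name STAR, featureCounts and mm10. Versions, annotation release and use of strand are not given in the sources used here. The authors deposited raw counts, whole numbers for each gene in each of 9 libraries.

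The model was fitted by edgeR 4.0.16 under R 4.3.3 (filterByExpr at its defaults of 10 and 15 reads, TMM, quasi-likelihood F-test, two-sided, Benjamini-Hochberg adjustment over 15937 genes, threshold 0.05). CPM are TMM-scaled, with a prior count of 2 on the log2 scale. Exon lengths and positions came from GENCODE M21, which holds 45143 of the 46078 identifiers. DESeq2 1.42.0 and limma 3.58.1 (voom), other scalings, no filter and omitted libraries were alternatives, and the code was tested on simulated data. No library was a copy of another. Labels do not say that libraries came from separate mice, so p-values measure the spread between libraries, which may be technical. The genes and lists were chosen with earlier results of these data known. Named were the 7 genes, the 4 called genes with the largest change in each pathway list, the 3 genes nearest to each member in profile, and Ly6a, Pecam1, Ptprc and Cdh5 as references. Further names were chosen after values were seen. Lists were the 5 pathway and 8 marker lists whose counts are given.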

Additional observations from a re-analysis of the deposited data

Results flagged for a closer look

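In 2 of 72 groups of library values examined, a library lay far from the others of its fraction, where chance alone gives about 1 in 20. Both concerned Sca-1- 2. Ehd2 was at 1.72 log2 CPM there and between 3.38 and 3.70 in the other 4 Sca-1- libraries. The log2 level of Cav2 minus Cav1 was -0.58 there and between -1.11 and -1.01 in the others. The same library had the lowest levels of Cav1, Cav2, Cavin3 and Plvap and the highest level of Cavin2.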

How the results depend on the processing

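Cav1, Cav2, Cavin3, Ehd2 and Plvap were higher in Sca-1+ under 19 of 20 alternatives, and Cavin2 did not pass the test under 19 of 20. The exception was scaling to the 15 general endothelial genes, which gave 14292 genes called, 0 of the 7 genes higher and 3 lower. Lower were Cavin1 (log2 fold change -3.46), Cavin2 (-5.03) and Cavin3 (-1.15). Cav1 (0.0024), Cav2 (-0.27), Ehd2 (-0.34) and Plvap (0.77) did not pass the test. By its construction this scaling removes a difference shared with those genes. Cavin1 lost its call in 10 other alternatives with its direction kept. With 1 library left out, log2 fold changes lay between 3.81 and 4.36 for Cav1, 0.80 and 1.25 for Cavin1, -0.66 and -0.30 for Cavin2, and 4.79 and 5.30 for Plvap, and the difference of Cav2 minus Cav1 between -0.30 and -0.16. Against Cdh5 the relative difference of Plvap was -0.25 (exact p = 0.41). Title numbers that follow each other might pair 3 libraries of each fraction. Their deviations correlated at 0.148, 0.147 and 0.0420, too low in the last case to take them as pairs by the correlation, although each of these libraries correlated best with its own neighbour. The titles of that last pair, Sca-1+ 2 and Sca-1- 4, share a further number and may mark a shared animal, which the labels do not state. With a replicate block on these pairs 4340 genes were called, against 5360 without it on the same 6 libraries and 7137 over all 9. Over both small fits Cavin1 was the member that lost its call (adjusted p = 0.13 and 0.18). At this depth the smallest member count was 46 reads.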
